A study of Mus musculus with 6 samples.

Results

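Transcripts of 10 neutrophil granule and alarmin genes were examined in bone marrow-derived macrophages (BMDMs) of wild-type (WT) and PYK2 knockout (PYK2 KO) mice. The genes were Mpo, Elane and Prtn3 (early granule), Ngp, Camp, Ltf, Lcn2 and Mmp8 (late granule), and S100a8 and S100a9 (alarmins). They were chosen by symbol, and all 10 were found among the 55291 genes of the table, of which 18659 had at least 1 count. BMDMs are primary macrophages grown in culture from bone marrow cells. Marrow was flushed from the long bones of the hind legs of C57BL/6 mice and cultured for 7 days in medium with 20% L929-conditioned medium, whose M-CSF drives macrophage differentiation. Each library came from 1 mouse, with 3 WT libraries (WT 1, 5 and 6) and 3 of PYK2 KO mice (PYK2 KO 2, 3 and 4). The PYK2 KO mice lacked PYK2 in the whole body, so that every marrow cell carried the deletion before culture, and no agent besides the culture medium was given to either genotype. No age was given in the labels.

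Neutrophils carry their antimicrobial proteins in granules that are filled in order as the cell matures in the marrow. Promyelocytes make the early (azurophil) granule proteins, myelocytes and metamyelocytes make those of the late (specific and gelatinase) granules, and mature neutrophils have largely stopped transcribing either group. The transcription factor PU.1 acts in the myeloid lineage and at early granule genes, and factors of the C/EBP family, C/EBPε above all, act at late granule genes. S100A8 and S100A9 form the heterodimer calprotectin, a calcium- and zinc-binding alarmin that is abundant in the cytosol of neutrophils and monocytes, and macrophages can make several of these transcripts at a low level.

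Macrophage markers were strongly expressed in all libraries. All 9 listed macrophage markers passed the filter on low counts, with sums of 6217 to 6808 CPM in WT cells and 6350 to 6620 CPM in PYK2 KO cells (CPM, counts scaled by library size and edgeR's TMM factor). Of 14 markers of neutrophil surface and maturity, 12 had at least 1 count and 3 were tested, with sums of 62.8 to 80.3 CPM in WT cells and 61.0 to 77.2 CPM in PYK2 KO cells. In this list Mrgpra2a and Mrgpra2b had 0 counts in all 6 libraries and Ly6g had 1 count, in PYK2 KO library 2. Others were low but present, with 1 to 6 counts per library for Cxcr2, 0 to 10 for Retnlg and 3 to 11 for Trem1. A floor of 3 counts corresponded to 0.762 to 1.05 CPM in these libraries, and such limits cover counting error only. The libraries held 2857097 to 3917207 counts, and Ptk2b, which encodes PYK2, was at 194 ± 5.62 CPM in WT cells and 21.7 ± 1.14 CPM in PYK2 KO cells (SD, n = 3 each). The libraries differed widely and by degrees in B2m (beta-2 microglobulin, the light chain of MHC class I). It was at 212, 262 and 521 CPM in WT libraries 6 and 5 and PYK2 KO library 2. In WT library 1 and PYK2 KO libraries 3 and 4 it was at 966, 1041 and 1513 CPM. No label gives a batch that orders the libraries in this way.

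The stretches before the annotated starts of the granule genes differed in the letters they held. In windows of 300 bases (250 before and 50 after the RefSeq start, GRCm38.p6), available for all 10 genes, the PU.1 letters GAGGAAG, or CTTCCTC on the other strand, were found in all 3 early granule genes, in 2 of 5 late granule genes (Lcn2 and Mmp8) and in 1 of 2 alarmins (S100a8). The C/EBP letters TTGCNNAA, or TTNNGCAA on the other strand, were found in 0 of the 3 early granule genes, in 4 of 5 late granule genes (all but Camp) and in 1 alarmin (S100a9). Among all 32851 windows of the table, 13.6% held the PU.1 letters and 10.8% the C/EBP letters. The NF-kB letters GGANTTTCC, or GGAAANTCC, were in none of the 10 windows and in 1.25% of all windows. No match of one motif overlapped a match of another. The 3 early granule genes and 3 of the late granule genes with C/EBP letters are shown to let the 2 groups be compared by eye. Each holds the 250 bases before the start, 5′ to 3′ along the gene's strand, with the PU.1 and C/EBP letters of either strand in capitals.
Mpo (chr11:87793534-87793783, plus strand): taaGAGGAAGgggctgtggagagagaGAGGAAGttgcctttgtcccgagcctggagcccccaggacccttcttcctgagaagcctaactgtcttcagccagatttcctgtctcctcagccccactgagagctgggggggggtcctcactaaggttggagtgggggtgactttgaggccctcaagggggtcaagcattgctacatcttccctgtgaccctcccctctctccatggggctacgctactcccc
Elane (chr10:79886062-79886311, plus strand): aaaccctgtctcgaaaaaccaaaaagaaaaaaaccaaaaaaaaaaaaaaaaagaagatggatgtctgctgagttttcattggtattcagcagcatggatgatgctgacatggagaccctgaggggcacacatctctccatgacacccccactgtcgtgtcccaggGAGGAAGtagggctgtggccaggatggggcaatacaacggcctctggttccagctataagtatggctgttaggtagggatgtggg
Prtn3 (chr10:79879417-79879666, plus strand): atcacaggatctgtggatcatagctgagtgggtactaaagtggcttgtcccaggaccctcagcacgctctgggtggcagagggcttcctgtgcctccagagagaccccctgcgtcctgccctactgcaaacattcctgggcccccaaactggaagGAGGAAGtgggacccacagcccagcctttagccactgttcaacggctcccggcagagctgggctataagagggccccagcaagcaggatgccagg
Ngp (chr9:110419558-110419807, plus strand): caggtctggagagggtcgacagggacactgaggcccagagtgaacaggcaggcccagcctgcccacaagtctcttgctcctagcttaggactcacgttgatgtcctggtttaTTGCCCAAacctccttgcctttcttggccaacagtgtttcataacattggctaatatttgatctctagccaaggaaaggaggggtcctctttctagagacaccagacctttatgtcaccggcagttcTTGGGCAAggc
Ltf (chr9:111019042-111019291, plus strand): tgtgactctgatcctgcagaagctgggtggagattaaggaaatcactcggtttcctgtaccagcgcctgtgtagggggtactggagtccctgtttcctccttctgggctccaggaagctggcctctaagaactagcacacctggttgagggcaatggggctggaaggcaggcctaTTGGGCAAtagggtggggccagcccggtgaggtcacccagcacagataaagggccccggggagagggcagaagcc
Mmp8 (chr9:7558179-7558428, plus strand): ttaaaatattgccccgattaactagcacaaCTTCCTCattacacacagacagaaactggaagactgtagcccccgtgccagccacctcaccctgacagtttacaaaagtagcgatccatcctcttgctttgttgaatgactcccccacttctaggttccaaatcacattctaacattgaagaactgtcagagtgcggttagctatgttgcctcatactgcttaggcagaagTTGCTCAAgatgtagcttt
Elane and Prtn3, which lie next to each other, carried the PU.1 letters at similar distances from their starts, beginning 85 and 95 bases before them. Mpo carried them at 2 places further away, 247 and 224 bases before its start. Ngp carried C/EBP letters at 2 places, 138 and 11 bases before its start, Ltf at 75 and Mmp8 at 19 bases. Mmp8 also carried the PU.1 letters, on the other strand, beginning 220 bases before its start. RefSeq starts can differ from those of the gene annotation used for positions below, and a match is a stretch of letters, not a measurement of binding.

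**Figure D1:**
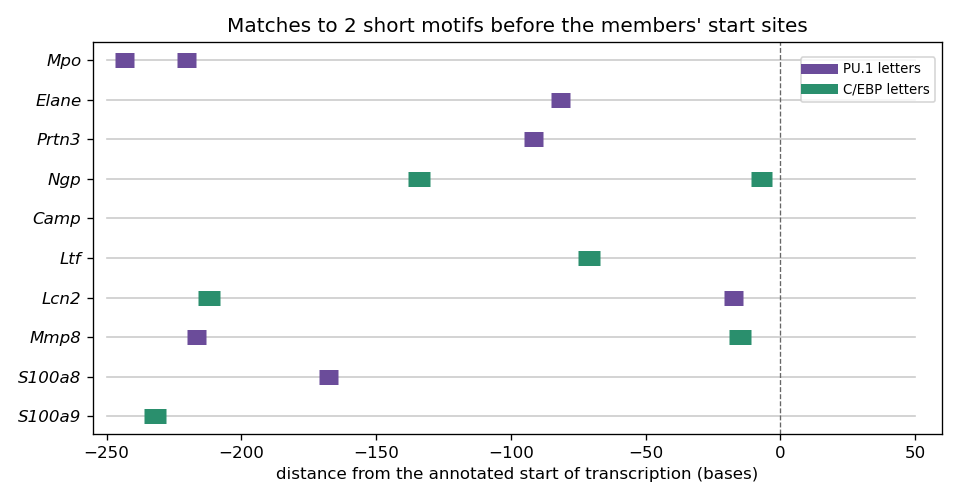
Positions of the PU.1 letters (purple) and C/EBP letters (green) in the window around each gene's start of transcription, with distance from the start in bases on the x axis and 1 gene per line. The 3 early granule genes at the top hold purple marks and no green ones, 4 of the 5 late granule genes hold green marks, and Camp holds neither.

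Several of the genes are also close together in the genome (GENCODE M21 annotation of GRCm38, the sequence of the mm10 build named in the submitters' processing notes). Prtn3 (chr10:79874476-79883174) and Elane (chr10:79886247-79888215) lie 3072 bases apart with no protein-coding gene between them, and S100a8 (chr3:90668978-90670035, plus strand) and S100a9 (chr3:90692632-90695721, minus strand) lie 22596 bases apart, again with none between. Camp (chr9:109847379-109849617), Ngp (chr9:110419747-110423012) and Ltf (chr9:111019271-111042767) are neighbours on a wider scale, with gaps of 0.57 Mb from Camp to Ngp and 0.60 Mb from Ngp to Ltf. Mmp8 (chr9:7558456-7568485) is on the same chromosome, 102.28 Mb from Camp. Mpo (chr11:87793581-87804413) and Lcn2 (chr2:32384633-32388252) lie on chromosomes of their own.

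All 10 transcripts were detected in every library, and their levels were a small part of each. They summed to 1040 to 1552 counts in the WT libraries and 1038 to 1852 in the PYK2 KO libraries, which was 0.0290% to 0.0559% of a library. The lowest share, in WT library 5, had an exact 95% binomial interval of 0.0273% to 0.0308%, and the highest, in PYK2 KO library 4, of 0.0534% to 0.0585%. In bulk RNA, fewer cells of a type and less RNA per cell cannot be told apart. The counts are of 3′ ends and are not scaled by gene length, so that the levels below are compared between libraries and not between genes.

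**Figure D2:**
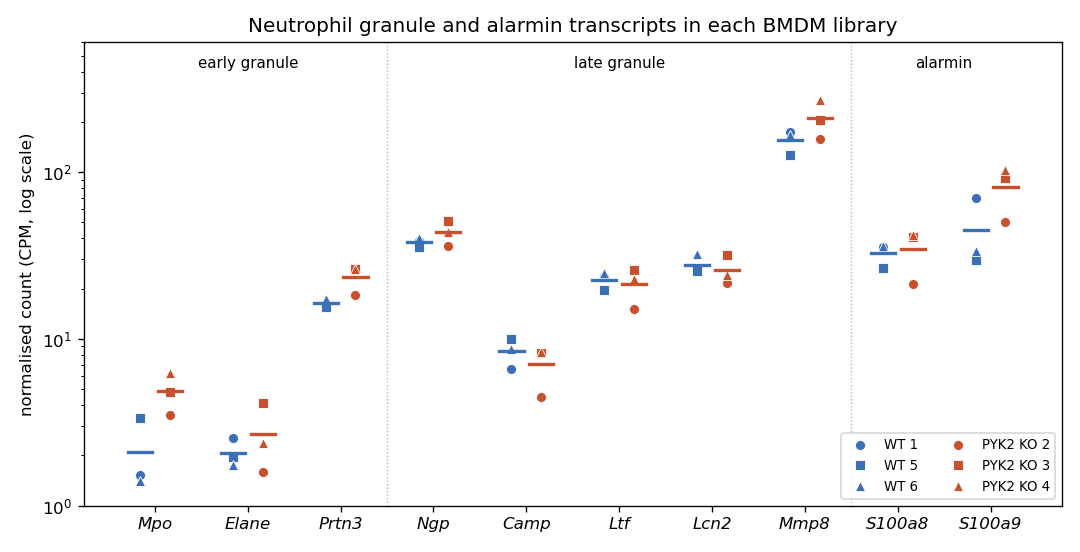
Normalised count of each transcript (CPM, log scale on the y axis) in the 3 WT libraries (blue) and the 3 PYK2 KO libraries (orange), with bars at the genotype means. The PYK2 KO points of Mpo and Prtn3 lie above all WT points, whereas those of the other 8 transcripts overlap the WT points.

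No transcript of the group passed the test. In edgeR's quasi-likelihood F test on 9815 genes, Benjamini-Hochberg adjusted, 9 of the 10 were tested (Elane was too low) and 0 had an adjusted p under 0.05, where 25 genes of all those tested did (0.255%). At an unadjusted p under 0.05 there were 4 of the 9 (Mpo, Prtn3, Mmp8 and S100a9), all with higher values in PYK2 KO BMDMs, beside 6.02% of all genes tested. DESeq2 also called 0 of the 10 (2 at an unadjusted p under 0.05) and limma voom 0 of the 9 (4 at an unadjusted p under 0.05). The log2 fold change was above 0 for 6 and below 0 for 3, with a median of 0.19 beside 0.0017 over all genes tested. The genotypes did not overlap for 2 of the 9 (Mpo and Prtn3), as for 10.2% of all genes tested. Without a filter on low counts, where 0.852% of 18659 genes were called, Mmp8 and S100a9 were called, with the same fold changes. The p-values of these tests rest on the spread between 3 mice of each genotype, moderated by the spread of all genes in the fit. Without a filter the SE of S100a9 was 0.12 in place of 0.27, so those calls do not measure the spread between mice alone. The two-sided exact permutation test gave p = 0.3 for Mmp8 and p = 0.2 for S100a9.

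Both tested early granule genes had higher values in every PYK2 KO library than in every WT library, without passing the adjusted test. Mpo encodes myeloperoxidase, the haem enzyme that makes hypochlorous acid. Its counts were 6, 12 and 4 in WT libraries 1, 5 and 6 and 11, 14 and 21 in PYK2 KO libraries 2, 3 and 4. After normalisation these were 1.52, 3.34 and 1.40 CPM in WT cells and 3.51, 4.83 and 6.23 CPM in PYK2 KO cells. Every PYK2 KO value was above every WT value, although PYK2 KO library 2 and WT library 5 were almost level. The means were 2.09 ± 1.09 and 4.86 ± 1.36 CPM (SD, n = 3 each), a log2 fold change of 1.19 (SE 0.40, 95% interval 0.34 to 2.04, adjusted p = 0.590 with edgeR and Benjamini-Hochberg adjustment). With so few counts, counting error alone gave an expected coefficient of variation of 36.9% in WT, where 52.2% was observed.

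Prtn3 encodes proteinase 3, a serine protease and the target of autoantibodies in some forms of vasculitis. It was at 16.3, 15.6 and 17.4 CPM in WT libraries 1, 5 and 6 and at 18.2, 26.2 and 26.4 CPM in PYK2 KO libraries 2, 3 and 4. The WT libraries were close together and all PYK2 KO libraries were above them, PYK2 KO library 2 by a small margin. The means were 16.4 ± 0.93 and 23.6 ± 4.68 CPM (SD, n = 3 each), with a log2 fold change of 0.53 (SE 0.17, 95% interval 0.15 to 0.90, adjusted p = 0.582 in the edgeR test with Benjamini-Hochberg adjustment). For Mpo and Prtn3 alike the two-sided exact permutation test gave p = 0.1, the smallest that 3 against 3 mice allow. The annotated gene overlaps the first bases of Plppr3, which is transcribed from the opposite strand and had 21 to 43 counts per library (43, 40 and 21 in WT and 42, 32 and 26 in PYK2 KO BMDMs).

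Elane encodes neutrophil elastase, whose mutation causes congenital neutropenia in humans. Its counts were 10, 7 and 5 in WT libraries 1, 5 and 6 and 5, 12 and 8 in PYK2 KO libraries 2, 3 and 4, or 2.54, 1.95 and 1.74 CPM against 1.60, 4.14 and 2.37 CPM. The genotypes overlapped, and PYK2 KO library 2 was the lowest of the 6 while PYK2 KO library 3 was the highest. It did not pass the filter. In the fit without a filter its log2 fold change was 0.33 (SE 0.48, 95% interval -0.61 to 1.27, adjusted p = 0.893 with edgeR and Benjamini-Hochberg adjustment), an interval wide enough to hold the estimate for Prtn3.

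Of 10 other genes typical of promyelocytes, 4 passed the filter and 0 were called by edgeR, with 0 at an unadjusted p under 0.05. The 3 with the highest counts were Cd63, Ctsc and Srgn (a granule membrane tetraspanin, the protease that activates granule serine proteases and the proteoglycan serglycin), which macrophages also express, with log2 fold changes of 0.05, 0.13 and 0.15. Ctsg, which encodes cathepsin G and was singled out after its values were seen, was at 1.78, 2.23 and 2.79 CPM in WT cells and 3.19, 3.10 and 5.04 CPM in PYK2 KO cells. These values did not overlap, and its log2 fold change was 0.77 (SE 0.38, adjusted p = 0.854 in the edgeR test with Benjamini-Hochberg adjustment).

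The late granule genes showed no common direction. Ngp, which encodes neutrophilic granule protein, was at 38.6, 35.7 and 40.1 CPM in WT libraries 1, 5 and 6 and at 36.1, 51.0 and 43.6 CPM in PYK2 KO libraries 2, 3 and 4. Its log2 fold change was 0.19 (SE 0.14, adjusted p = 0.931 with edgeR and Benjamini-Hochberg adjustment), and the PYK2 KO value of library 2 lay among the WT values. Camp, the precursor of the antimicrobial peptide cathelicidin, was at 6.61, 10.0 and 8.72 CPM in WT cells and 4.47, 8.27 and 8.30 CPM in PYK2 KO cells. The log2 fold change of -0.26 (SE 0.28, 95% interval -0.85 to 0.33, adjusted p = 0.953 with edgeR and Benjamini-Hochberg adjustment) was the lowest of the group and within its own error.

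Ltf and Lcn2 both encode proteins that keep iron from bacteria, lactoferrin by binding iron itself and lipocalin 2 by binding bacterial siderophores. Ltf was at 23.6, 19.5 and 24.8 CPM in WT cells and 15.0, 25.9 and 22.8 CPM in PYK2 KO cells, a log2 fold change of -0.09 (SE 0.19, adjusted p = 0.989 with edgeR and Benjamini-Hochberg adjustment). Lcn2 was at 25.7, 25.4 and 32.4 CPM in WT cells and 21.7, 31.7 and 24.0 CPM in PYK2 KO cells, a log2 fold change of -0.10 (SE 0.17, adjusted p = 0.973 again with edgeR and Benjamini-Hochberg adjustment). Both genes were lowest in PYK2 KO library 2, and the WT range fell inside the PYK2 KO range for Ltf and overlapped it for Lcn2. The intervals allow a PYK2 KO level of 0.712 to 1.24 times the WT level for Ltf and 0.729 to 1.19 times for Lcn2, and the sign of both turned when PYK2 KO library 2 was left out (0.10 for Ltf and 0.0047 for Lcn2).

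Mmp8, which encodes neutrophil collagenase, was the 1 late granule gene at an unadjusted p under 0.05 in the edgeR test. Its 95% interval, given below, overlapped those of the other late granule genes. Its counts were 684, 456 and 477 in WT libraries 1, 5 and 6 and 498, 593 and 913 in PYK2 KO libraries 2, 3 and 4. These were 174, 127 and 166 CPM in WT cells and 159, 204 and 271 CPM in PYK2 KO cells. PYK2 KO libraries 3 and 4 were above all WT libraries and PYK2 KO library 2 was within them. The means of 156 ± 25.1 and 211 ± 56.2 CPM (SD, n = 3 each) gave a log2 fold change of 0.44 (SE 0.15, 95% interval 0.12 to 0.77, adjusted p = 0.595 with edgeR and Benjamini-Hochberg adjustment). The spread between mice was 16.1% of the mean in WT and 26.6% in PYK2 KO BMDMs, against 4.31% and 3.87% from counting alone. In the edgeR fit without a filter the adjusted p of Mmp8 was 0.00043 (Benjamini-Hochberg). The log2 fold change there was also 0.44, and the SE was 0.09 in place of 0.15. The two-sided exact permutation test gave p = 0.3 for Mmp8. With 1 library left out at a time its log2 fold change ran from 0.22 (without PYK2 KO library 4, adjusted p = 1.00) to 0.61 (without PYK2 KO library 2, adjusted p = 0.105, edgeR with Benjamini-Hochberg adjustment), and it was called in none of these 6 fits.

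**Figure D3:**
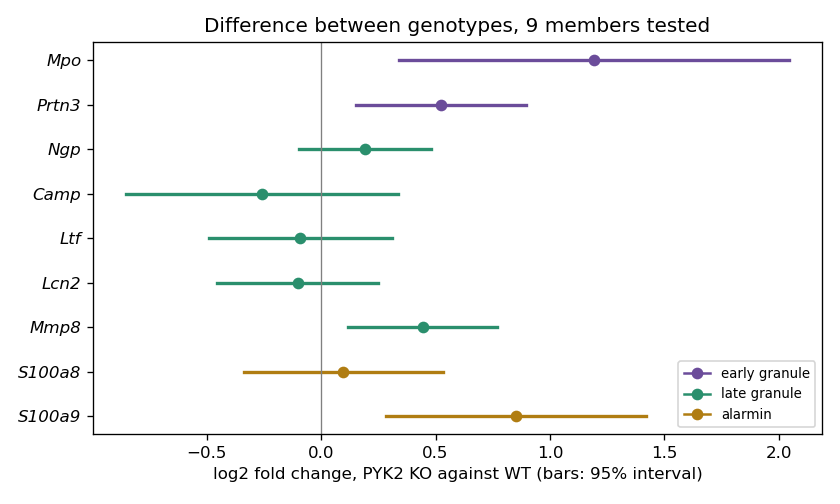
Log2 fold change of PYK2 KO against WT BMDMs (x axis) with its 95% interval for the 9 transcripts tested, coloured by group. The intervals of Mpo, Prtn3, Mmp8 and S100a9 lie above 0 before adjustment for 9815 genes, and the other 5 include 0.

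Among 17 other genes of the specific, gelatinase and secretory granules, 10 passed the filter and 0 were called by edgeR, 4 had an unadjusted p under 0.05 (6.02% of all genes tested), and the median log2 fold change was 0.005. The 3 with the highest counts were Lyz2, Cyba and Cybb (lysozyme and the 2 chains of the phagocyte oxidase cytochrome), which macrophages also express, at log2 fold changes of 0.08, -0.10 and 0.30. Hp (haptoglobin), Lyz1 (the other lysozyme gene, which may share reads with Lyz2) and Lrg1 (a leucine-rich glycoprotein of late granules) were singled out after their values were seen. Hp was at 24.9, 19.2 and 20.2 CPM in WT cells and 30.3, 42.1 and 30.8 CPM in PYK2 KO cells (log2 fold change 0.67, adjusted p = 0.215), and Lyz1 at 18.6, 21.5 and 20.6 against 28.4, 31.4 and 31.7 CPM (0.60, adjusted p = 0.164 with edgeR and Benjamini-Hochberg adjustment). Lrg1 was at 4.57, 3.34 and 3.84 against 1.28, 2.41 and 1.19 CPM (log2 fold change -1.28, adjusted p = 0.539 with edgeR and Benjamini-Hochberg adjustment). The genotypes did not overlap for any of these 3, as for 10.2% of all genes tested, and without a filter Hp (adjusted p = 0.0054) and Lyz1 (adjusted p = 0.039) were called by edgeR.

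Early against late granule genes were then compared as sums in each library, which are given as a description with no test. The early granule sum was 20.3, 20.9 and 20.6 CPM in WT libraries 1, 5 and 6 and 23.3, 35.2 and 35.0 CPM in PYK2 KO libraries 2, 3 and 4. The WT libraries were within 1 CPM of each other and the PYK2 KO libraries were all above them, with a ratio of means of 1.51. Prtn3 gave 74.5% to 84.7% of these counts. The late granule sum was 268, 218 and 272 CPM in WT cells and 236, 321 and 370 CPM in PYK2 KO cells, overlapping, with a ratio of means of 1.22. Mmp8 gave 58.4% to 73.3% of the late granule counts, and without it the late sums averaged 97.0 ± 8.04 CPM in WT cells and 97.6 ± 19.8 CPM in PYK2 KO cells (SD, n = 3 each).

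The ratio of late to early granule counts was 13.2, 10.4 and 13.2 in WT libraries 1, 5 and 6 and 10.1, 9.14 and 10.6 in PYK2 KO libraries 2, 3 and 4. WT library 5 lay between the PYK2 KO libraries, so that the genotypes overlapped. With the alarmins added to the late granule genes the ratio was 18.4, 13.1 and 16.6 in WT and 13.2, 12.9 and 14.7 in PYK2 KO BMDMs, also overlapping. Without Mmp8, a choice made after seeing the data, it was 4.65, 4.33 and 5.15 in WT and 3.32, 3.32 and 2.82 in PYK2 KO BMDMs, and the genotypes no longer overlapped.

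**Figure D4:**
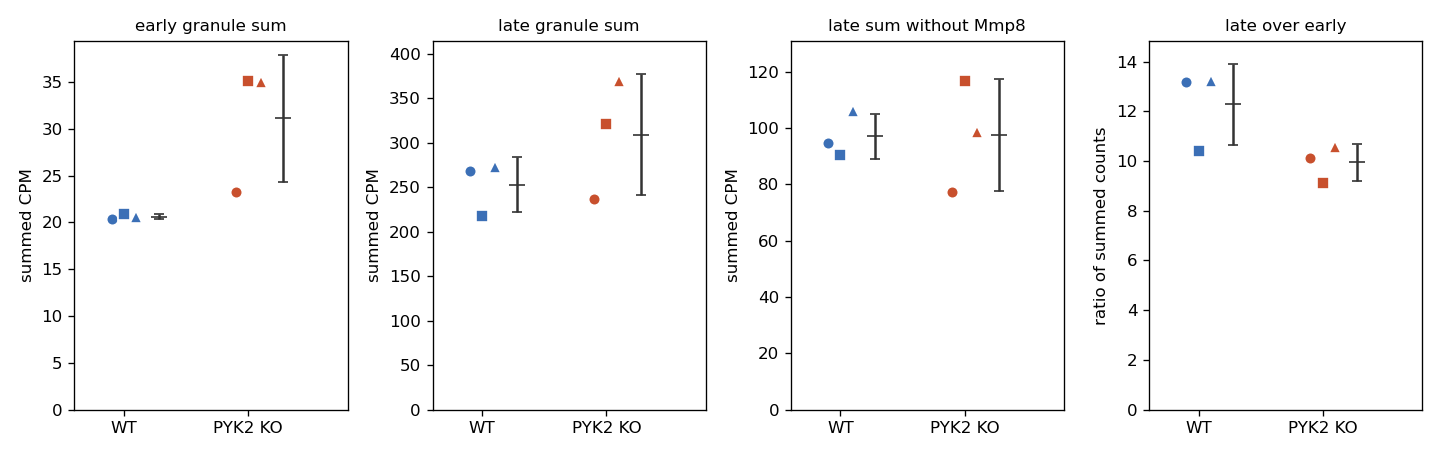
Summed normalised counts (CPM) of early granule genes, late granule genes and late granule genes without Mmp8, and the ratio of late to early granule counts, in each WT (blue) and PYK2 KO (orange) library, with the mean and SD of each genotype in black. The early sums of the PYK2 KO libraries (23.3 to 35.2) lie above those of WT (20.3 to 20.9), while the other panels overlap.

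Both alarmins came from the same region of chromosome 3 but varied differently between the libraries. S100a8 was at 35.3, 26.5 and 35.9 CPM in WT libraries 1, 5 and 6 and at 21.4, 40.7 and 42.1 CPM in PYK2 KO libraries 2, 3 and 4. PYK2 KO library 2 was below and PYK2 KO libraries 3 and 4 were above all WT libraries. The log2 fold change was 0.10 (SE 0.20, 95% interval -0.34 to 0.53, adjusted p = 0.991 with edgeR and Benjamini-Hochberg adjustment), and its sign turned when WT library 5 (-0.04) or PYK2 KO library 3 (-0.02) or 4 (-0.08) was left out.

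S100a9 had counts of 277, 107 and 97 in WT libraries 1, 5 and 6 and 158, 269 and 346 in PYK2 KO libraries 2, 3 and 4, or 70.4, 29.8 and 33.8 CPM in WT cells and 50.4, 92.7 and 102.6 CPM in PYK2 KO cells. WT library 1 was above PYK2 KO library 2, and apart from it every PYK2 KO library was above every WT library. The means were 44.7 ± 22.4 and 81.9 ± 27.7 CPM (SD, n = 3 each), a log2 fold change of 0.85 (SE 0.27, 95% interval 0.28 to 1.42, adjusted p = 0.537 with edgeR and Benjamini-Hochberg adjustment). This was the lowest adjusted p of the 9 transcripts. In the edgeR fit of all libraries without a filter the adjusted p of S100a9 was 1.45e-10 (Benjamini-Hochberg). The log2 fold change there was also 0.85, and the SE was 0.12 in place of 0.27. The genotypes overlapped, and the two-sided exact permutation test gave p = 0.2. Without WT library 1, where 0.342% of 9934 genes were called, the log2 fold change was 1.37 and S100a9 was called (adjusted p = 0.0173, edgeR with Benjamini-Hochberg adjustment). In the 5 fits that left out another library it was not called, and its log2 fold change ran from 0.62 (without WT library 5, adjusted p = 0.995) to 1.10 (without PYK2 KO library 2, adjusted p = 0.0956, edgeR with Benjamini-Hochberg adjustment). In WT the spread between mice was 50.0% of the mean, against 7.90% from counting alone.

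The number of S100a9 counts per S100a8 count was 1.99, 1.13 and 0.94 in WT libraries 1, 5 and 6 and 2.36, 2.28 and 2.44 in PYK2 KO libraries 2, 3 and 4. The 3 PYK2 KO libraries were close to each other, although PYK2 KO library 2 had about 0.5 times the level of both transcripts in the others. WT library 1, with an exact 95% interval for counting error of 1.62 to 2.46, reached into the intervals of the PYK2 KO libraries, the lowest of which began at 1.76. The intervals of WT libraries 5 and 6 ended at 1.50 and 1.25.

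S100a9 followed B2m across the libraries, a comparison added after the values were seen. Pearson's r of log2(CPM + 1) over the 6 libraries was 0.98 for S100a9 and 0.80 for Mmp8, and it ran from -0.24 to 0.71 for the other 8 transcripts (a description, since the libraries also differ in genotype). B2m was not particular in this, since 169 of the 9806 tested genes outside the group had an r above 0.9 with S100a9. The 5 most alike were at 0.987 to 0.995, above B2m at 0.976. The part of the B2m difference between libraries in the results was not tested.

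**Figure D5:**
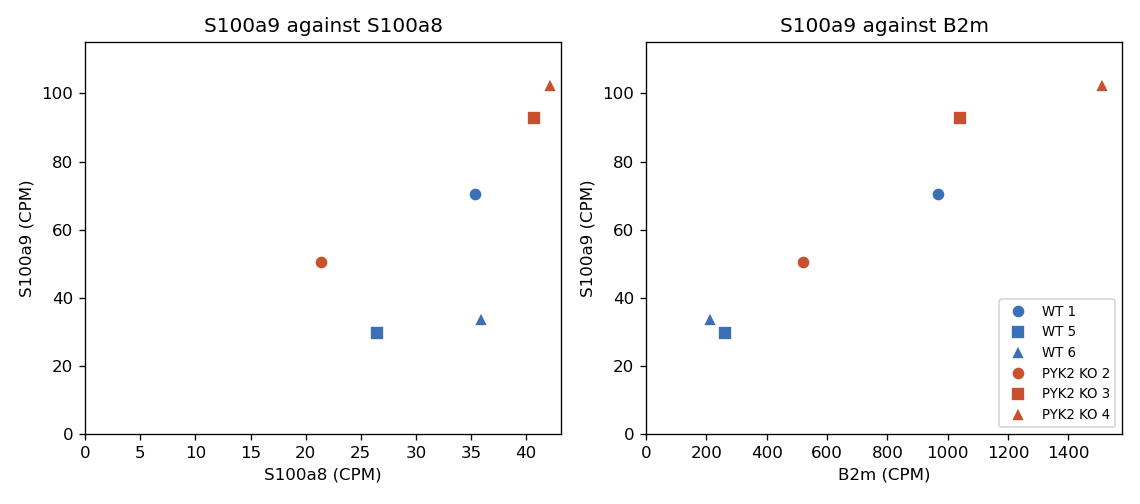
S100a9 (CPM, y axis) against S100a8 (left) and B2m (right) in the 6 libraries, WT in blue and PYK2 KO in orange. On the right the points lie along a line from WT libraries 5 and 6 to PYK2 KO library 4, and on the left WT libraries 5 and 6 lie low for their S100a8 level.

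The transcripts did not vary as 1 block. S100a8 and Ltf were close over the 6 libraries (Pearson's r of log2(CPM + 1) 0.93), as were Mmp8 and S100a9 (0.87), Mmp8 and Prtn3 (0.87) and Prtn3 and Ngp (0.86). In contrast, Lcn2 and S100a9 (-0.07) and Camp and Mmp8 (0.02) had values near 0, and the paired alarmins had 0.60. PYK2 KO library 2 was the lowest of all libraries for 5 of the 10 (Elane, Camp, Ltf, Lcn2 and S100a8). Of the 9806 tested genes outside the group, those most like S100a8 were Cd53, Supv3l1, Hnrnpd, Haus6 and Ppp1r3e (r from 0.98 to 1.00), and 90 genes had an r above 0.9. Those most like the late granule sum were Ttl, Usp20, Acbd5, Mier1 and Hdac3 (r from 0.99 to 1.00), with 135 above 0.9. With 6 libraries that share depth and composition effects, such values are descriptions.

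Genes that act with or on the granule proteins were examined by list, beside 0.255% of all genes tested called and 6.02% at an unadjusted p under 0.05. Of 15 listed inhibitors of granule proteases, 5 passed the filter, 1 was called higher and 0 lower, and 2 had an unadjusted p under 0.05. The called gene was Slpi, the secretory leukocyte protease inhibitor, which blocks elastase and cathepsin G. It was at 43.2, 49.3 and 56.5 CPM in WT cells and 73.1, 84.1 and 74.1 CPM in PYK2 KO cells and rose by 0.64 on the log2 scale (SE 0.11, adjusted p = 0.025 with edgeR and Benjamini-Hochberg adjustment). It was no longer called when WT library 1 or 5 or PYK2 KO library 2, 3 or 4 was left out, although its log2 fold change stayed between 0.55 and 0.74. Cstb (cystatin B), Serpinb6a and Timp2, the inhibitors with the highest counts, had log2 fold changes of -0.06, -0.06 and -0.17. The other gene at an unadjusted p under 0.05 was Cst7 (cystatin F), at a log2 fold change of 0.38 (adjusted p = 0.768 with edgeR and Benjamini-Hochberg adjustment).

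No receptor or transcription factor of the lists was called. Of 11 receptors of alarmins, lipocalin and related ligands, 6 passed the filter and 0 were called by edgeR (1 at an unadjusted p under 0.05), with log2 fold changes above 0 for 5 and below 0 for 1 and a median of 0.02. Lrp1, Bsg and Cd14, with the highest counts, were at log2 fold changes of 0.0014, 0.0011 and -0.08. The receptor at an unadjusted p under 0.05 was Cd36, a scavenger receptor (log2 fold change 0.74, adjusted p = 0.697 with edgeR and Benjamini-Hochberg adjustment), at 26.9, 15.3 and 10.5 CPM in WT and 18.2, 31.4 and 40.9 CPM in PYK2 KO libraries, which overlapped. Without a filter it was called (adjusted p = 0.0023, edgeR with Benjamini-Hochberg adjustment). Of 12 transcription factors of granulopoiesis, 7 passed and 0 were called by edgeR, with 0 at an unadjusted p under 0.05. Cebpb, Spi1 (which encodes PU.1) and Irf8 had log2 fold changes of -0.09, -0.18 and 0.0047. Of 15 acute-phase genes, 7 passed, 4 had an unadjusted p under 0.05 (6.02% of all genes tested, of which 0.255% were called), 2 had a log2 fold change above 0 and 5 below 0 (median -0.09), and Saa3, a serum amyloid A of macrophages, was the 1 called, from 94.2 ± 6.56 to 200.1 ± 16.0 CPM (SD, n = 3 each, log2 fold change 1.09, adjusted p = 5.67e-06 with edgeR and Benjamini-Hochberg adjustment). The others at an unadjusted p under 0.05 were Hp (above) and, with lower values in PYK2 KO cells and no overlap, Nfkbiz (-0.60, adjusted p = 0.651) and Zc3h12a (-0.36, adjusted p = 0.613 with edgeR and Benjamini-Hochberg adjustment). Cebpb is also in that list, and Cebpd had a log2 fold change of -0.07.

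Markers of other cells were compared beside these values. Of 6 monocyte markers 4 passed the filter, and their sums were 135 to 141 CPM in WT cells and 194 to 217 CPM in PYK2 KO cells, so that they moved with genotype as the early granule sum did. F13a1 (the A chain of factor XIII), which gave most of that sum, was called (log2 fold change 0.64, adjusted p = 0.00065 with edgeR and Benjamini-Hochberg adjustment), while Ly6c2 (0.64, adjusted p = 0.590) and Chil3 (0.20, adjusted p = 0.959) were not. Their part in the early granule result was not tested. Of 7 progenitor markers 0 passed the filter, and their sums overlapped at 1.78 to 4.53 CPM in WT cells and 1.72 to 4.47 CPM in PYK2 KO cells, with Flt3 at 0 counts. The 3 tested neutrophil markers Csf3r (the G-CSF receptor), G0s2 and Wfdc21 had log2 fold changes of -0.15, -0.57 and -0.24, and 0 were called by edgeR, with 0 at an unadjusted p under 0.05. The markers too low to be tested differed in direction. The formyl peptide receptors Fpr1 (1.46 ± 0.32 CPM in WT cells and 3.42 ± 0.42 CPM in PYK2 KO cells, SD, n = 3 each) and Fpr2 (0.97 ± 0.11 and 2.00 ± 0.70 CPM) were higher in every PYK2 KO library than in every WT library, at 3 to 11 counts. Asprv1 (1.89 ± 0.59 and 1.17 ± 0.21 CPM) and Stfa2l1 (0.70 ± 0.30 and 0.099 ± 0.17 CPM, at most 3 counts) were lower in every PYK2 KO library, and the values of Cxcr2, Retnlg and Trem1 overlapped. Those without overlap were singled out after their values were seen. The share of 10.2% without overlap covers tested genes only and gives no background for them. Of the 9 macrophage markers 0 were called by edgeR, with 0 at an unadjusted p under 0.05, 5 had a log2 fold change above 0 and 4 below 0, and the median was 0.12. Cd68, Csf1r and Lgmn, with the highest counts, were at -0.02, -0.05 and -0.09, the highest value was that of Mrc1 (0.25), and the genotypes did not overlap for Itgam (0.12). Markers of T and NK cells and of red cells had 0 counts, those of eosinophils, basophils and mast cells, of dendritic cells and of stroma summed to at most 1.52 CPM in any library, and of 7 B cell markers 5 were at 0 and Cd79b, at 13.7 to 23.1 CPM, had a log2 fold change of -0.24.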

How the data were processed

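RNA of BMDMs of 3 WT and 3 PYK2 KO mice was sequenced as bulk MARS-seq libraries, in which reads come from 3′ transcript ends. The values deposited by the authors are whole-number counts per gene symbol from the UTAP pipeline. The submitters' processing notes name cutadapt, STAR and mm10, and whether molecular identifiers were collapsed is not given in the sources used here, so intervals cover counting error only. The deposited counts were not normalised, and 0 columns belonged to other samples.

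The test between genotypes was edgeR 4.0.16 in R 4.3.3, with genes filtered by filterByExpr, libraries scaled by TMM, a quasi-likelihood F test on genotype and a Benjamini-Hochberg adjusted p under 0.05 over all genes tested. The code was first tested on simulated data. CPM are counts scaled to the TMM-adjusted library size, and each SE was derived from the F statistic. Libraries of 1 genotype differed by more than sampling noise (chi-square per degree of freedom at least 2.15). Alternatives were DESeq2 1.42.0, limma 3.58.1 (voom), other scalings and filters, and each library left out. Promoter windows came from the RefSeq table (GRCm38.p6), matched by symbol.

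The members and lists were chosen with earlier results of these data known. Named besides the 10 genes were Ptk2b, the called genes and the 3 with the highest mean CPM of each list, defining markers at 0, and the 5 genes most alike in pattern to S100a8 and to the late granule sum. Ctsg, Hp, Lyz1, Lrg1, B2m, Nfkbiz, Zc3h12a, Mrc1, Itgam, Cd36, Cst7 and the neutrophil markers too low to test were named after their values were seen, and Plppr3 because it overlaps Prtn3. Sums and ratios had no test.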

Additional observations from a re-analysis of the deposited data

How the results depend on the processing

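No paired analysis was possible because the 2 genotypes share no replicate number. The number of genes called was 159 without a filter on low counts and 14 to 34 with 1 library left out, against 25. Of 107 alternative values of the 9 tested transcripts 98 kept their direction and side of the threshold, 3 passed it (given with Mmp8 and S100a9) and 6 reversed. With 1 library left out, the log2 fold change ran from 0.96 to 1.71 for Mpo, from 0.43 to 0.68 for Prtn3, from -0.076 to 0.35 for S100a8, from -0.25 to 0.10 for Ltf and from -0.27 to 0.011 for Lcn2. Over the same fits the ratio of PYK2 KO to WT sums ran from 1.41 to 1.70 for early granule genes and from 1.33 to 1.85 for alarmins, and the log2 late to early ratio was -0.58 without Mmp8, against -0.30. Of 465 values of the 39 other genes 429 kept both, 5 (all of Slpi) no longer passed, 3 (Hp, Lyz1 and Cd36) passed without a filter and 28 reversed, in genes whose log2 fold changes were small. Without a filter, Irf8 was at -0.0022, Lrp1 at -0.0054 and Bsg at -0.0064, with DESeq2 Lrp1 was at -0.0015 and Bsg at -0.0017, and with limma voom Lrp1 was at -0.0011 and Bsg at -0.0097. With 1 library left out the range was -0.028 to 0.10 for Cd63, -0.22 to 0.035 for Cebpb, -0.038 to 0.053 for Irf8, -0.13 to 0.058 for Serpinb6a, -0.055 to 0.050 for Lrp1, -0.10 to 0.12 for Bsg, -0.19 to 0.0059 for Cd14, -0.19 to 0.031 for Cebpd, -0.069 to 0.033 for Cd68, -0.11 to 0.033 for Csf1r, -0.17 to 0.0066 for Lgmn and -0.062 to 0.36 for Chil3. The cause of these shifts was not tested. Depth limits Mpo and Elane, at 4 to 21 counts per library, most.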
